A study of Rattus norvegicus with 4 samples.

Results

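Matrix metalloproteinases (Mmp), their tissue inhibitors (Timp) and the Adamts proteases were described across the cell classes of rat sciatic nerve and dorsal root ganglion. The genes were chosen by name alone: symbols made of Mmp, Timp or Adamts and a number, with 1 optional letter after an Mmp number. That rule took 45 of the 25399 genes in the table, 22 Mmp, 4 Timp and 19 Adamts genes. Single cells from Sprague Dawley rats were profiled by droplet sequencing of transcript 3′ ends, in 4 groups of 1 library each: sciatic nerve on postnatal day 1, sciatic nerve at 8 weeks, dorsal root ganglion on postnatal day 1 and dorsal root ganglion at 8 weeks. Sex was not determined, and the labels name neither a genotype nor an agent. Their protocol describes a primary culture of Schwann cells in serum medium, and whether the sequenced cells had been cultured is not stated. Barcodes carry a library number from 1 to 4 that no label ties to a tissue or an age. The libraries are therefore named library 1 to library 4, tissues and ages are not compared, and each contrast sets cell classes of 1 library side by side. With 1 library per group there was no test, and the intervals below are 95% intervals for counting error only.

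Metalloproteinases of the Mmp family are zinc enzymes that cut collagens, laminins, proteoglycans and many cell-surface proteins, and the membrane-type members stay anchored at the cell surface. Adamts proteases are secreted relatives with thrombospondin repeats. Some of them cut aggrecan and versican, and others trim procollagens so that fibrils can form. Timp proteins bind the active site of these enzymes, and Timp3 differs from the others in that it is held in the matrix. In peripheral nerve these genes are known above all for the clearing and rebuilding of matrix after injury and for the sheath around fibres and fascicles.

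The deposited counts held 336170988 UMIs (unique molecular identifiers, each standing for 1 captured transcript) in 41444 barcodes, and 74425958 to 97572003 UMIs per library. Of these barcodes, 33175 had at least 500 genes and at most 20% mitochondrial UMIs and were kept, with median depths of 1645.5 to 7554.5 UMIs by library, lowest in library 2. Marker genes placed 27726 of the kept cells in a class and left 5449 without one, 34.2% of the kept cells in library 3 and 9.96% to 13.8% in the others. The class called Schwann-lineage-like (Sox10, Erbb3, Cdh19, S100b and others) takes in Schwann cells and satellite glia. Its summed markers stood at 2747 to 4717 CPM (a gene's UMIs scaled to a total of 1000000 for the class in that library) in its own cells and at no more than 721 in another class. Fibroblast markers stood at 32362 to 125289 CPM in fibroblast-like cells. They were also present in Schwann-lineage-like cells, at 3.76%, 0.792%, 5.71% and 11.6% of the fibroblast-like level in libraries 1 to 4. In CPM that was 4711, 421, 1849 and 6606, above the class's own summed markers in libraries 1 and 4. In perineurial-like cells fibroblast markers summed to 16785 CPM, and their own to 5788. Neuron-like cells were found in libraries 2 and 3 in number, and perineurial-like cells in library 1. A total of 191 barcode sequences occurred in more than 1 library.

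Of the 45 genes, 35 had at least 20 UMIs in 1 class of 1 library: all 4 Timp, 14 Mmp and 17 Adamts genes. The others were Adamts6 with 57 UMIs over all barcodes, Mmp12 with 43, Mmp7 with 13, Mmp1 with 8, Adamts18 with 6, Mmp21 with 5 and Mmp10 with 4. Mmp1b, Mmp11 and Mmp28 had 0 UMIs in all 41444 barcodes. Counts of 3′ ends depend on how each gene's end was captured, so levels are compared between cells for 1 gene and not between genes.

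Of the 22 Mmp genes, 10 lie one after another on rat chromosome 8, in the order Mmp13, Mmp12, Mmp1b, Mmp3, Mmp1, Mmp10, Mmp8, Mmp27, Mmp20 and Mmp7 (RefSeq, assembly GRCr8). Neighbours in this block were counted in different cells. Mmp8 was in neutrophil-like cells, Mmp13 in neuron-like cells, and Mmp3 and Mmp27 in fibroblast-like cells. Their promoters are shown because the block is where the AP-1 motif, the site of Fos and Jun factors, was found. The motif TGAGTCA was searched on both strands over the 250 bases before each gene's start, and it was in 1354 of 33469 rat promoters (4.05%). Of the 34 genes of the set with a promoter in the table, 6 held it, all of them in the block: Mmp1, Mmp3, Mmp7, Mmp10, Mmp12 and Mmp13. Its first base lay 61 to 87 bases before the start. The last 100 bases before the start, plus strand, are printed for 4 genes, with the motif in capitals (TGACTCA in Mmp13 is the same motif read on the other strand), for Mmp13 at chr8:12782729-12782828, Mmp3 at chr8:12925181-12925280, Mmp8 at chr8:13008790-13008889 and Mmp27 at chr8:13030652-13030751.
Mmp13: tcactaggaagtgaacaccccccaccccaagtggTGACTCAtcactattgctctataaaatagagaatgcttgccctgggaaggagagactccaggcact
Mmp3: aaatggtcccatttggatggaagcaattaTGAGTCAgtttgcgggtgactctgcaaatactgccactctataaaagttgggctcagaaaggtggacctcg
Mmp8: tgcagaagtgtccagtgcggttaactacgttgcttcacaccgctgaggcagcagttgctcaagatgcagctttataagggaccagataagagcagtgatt
Mmp27: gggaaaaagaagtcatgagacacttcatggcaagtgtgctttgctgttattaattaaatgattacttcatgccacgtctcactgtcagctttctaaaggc
Mmp13 and Mmp3 hold the motif 66 and 71 bases before their starts. Neither Mmp8 nor Mmp27 has these letters in the 250 bases searched, which says nothing of what binds there.

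Across classes, fibroblast-like cells had the highest level of the largest number of genes in each library. In library 1 they came first for 12 of 29 genes with a level, in library 2 for 10 of 26, in library 3 for 12 of 30 and in library 4 for 13 of 26. Schwann-lineage-like cells came first for 3, 8, 4 and 6 genes in the same order, and endothelial-like cells for 6, 1, 3 and 1. Perineurial-like cells came first for 7 genes in library 1. Classes were not ranked in this way over all genes, so no such share stands beside these counts. Mural-like cells, the pericytes and smooth muscle of vessels, came first for 4, 6 and 6 genes in libraries 2 to 4. A gene was ranked when any class of the library had 20 UMIs, so a first place can rest on fewer. Mural-like cells came first in library 3 for Adamts16, Mmp3 and Adamts8 from 4, 3 and 6 UMIs. In library 4 they did so for Adamts3, Mmp19 and Adamts8 from 4, 6 and 10 UMIs. Gated cells held 92.4% of the set's UMIs among kept cells.

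**Figure D1:**
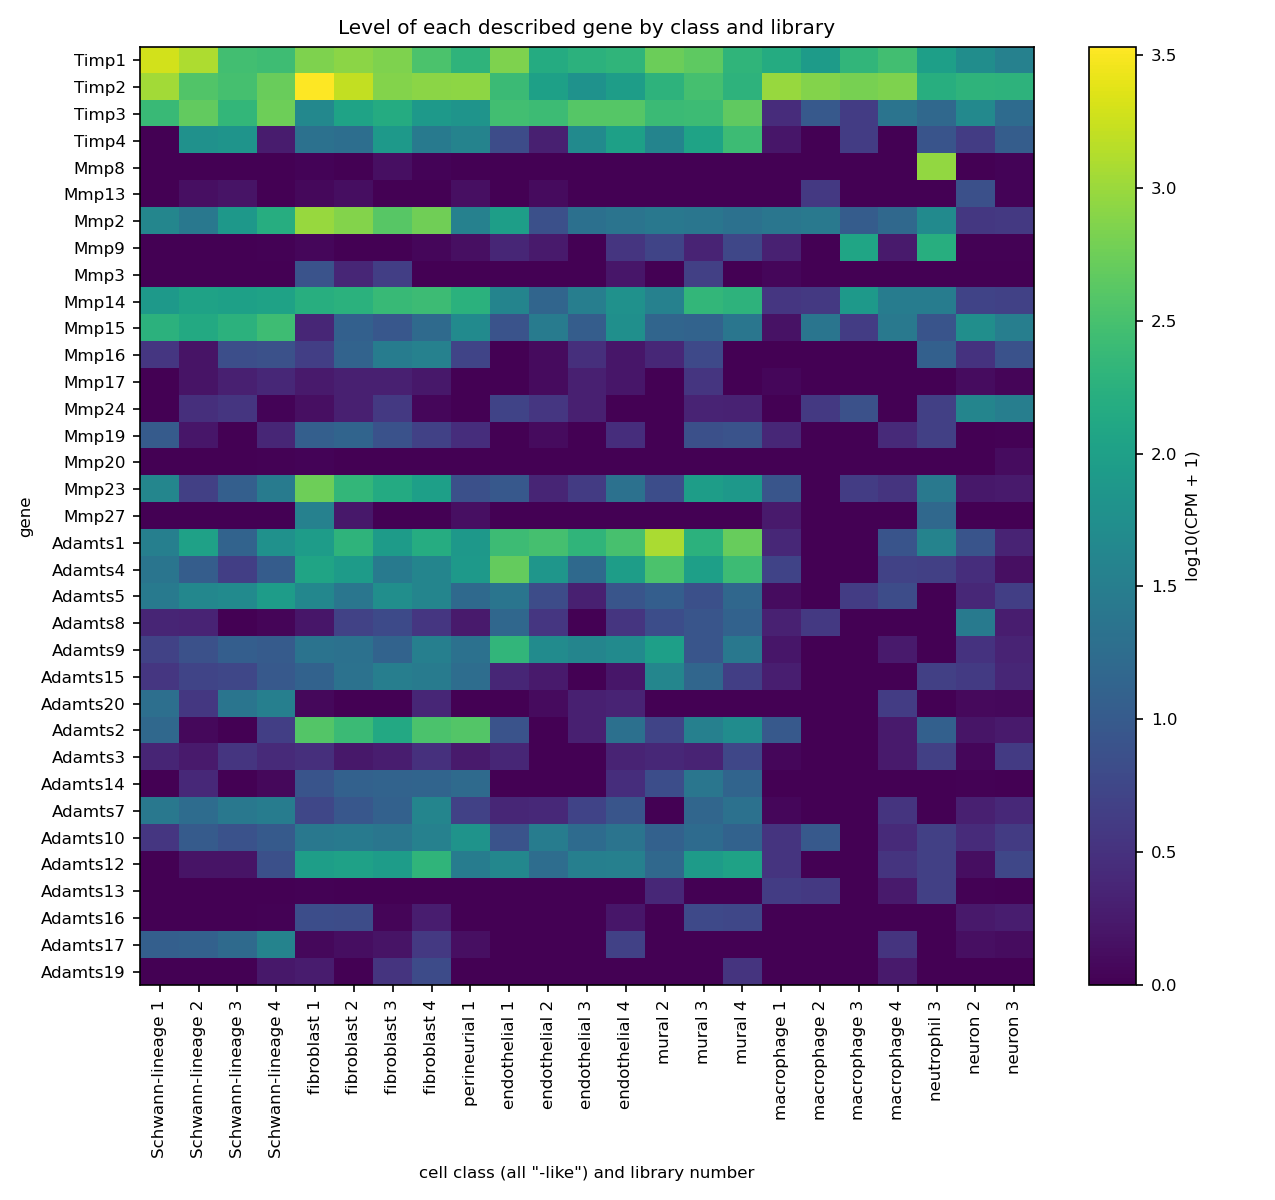
Heat map of the 35 genes described (rows) in 23 pairs of class and library (columns), coloured by log10(CPM + 1). Mmp2, Mmp23 and Adamts12 are brightest in the fibroblast columns, Adamts2 in the fibroblast and perineurial columns, Mmp15 in the Schwann-lineage columns, Adamts1 in mural and endothelial columns, and Mmp8 in the neutrophil column.

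Among the inhibitors, Timp1, an inducible inhibitor that also acts as a growth factor, had glial levels that differed between libraries. Over libraries 1 to 4, Schwann-lineage-like cells stood at 1972 (1873 to 2075), 1231 (1209 to 1253), 289 (266 to 314) and 272 CPM (268 to 277) of Timp1. Fibroblast-like cells had 694, 829, 707 and 333 CPM of Timp1. Glia were thus above fibroblasts in libraries 1 and 2 and below them in libraries 3 and 4, and in log2 the ratios were 1.51, 0.57, -1.29 and -0.29. At a mitochondrial limit of 10% the Timp1 level of library 2 glia was 731 CPM. The median mitochondrial share of those glia was 13.9%, against 4.74% in the fibroblast-like cells beside them, and its part in the level was not tested. Endothelial-like cells had 697 CPM of Timp1 in library 1 and 147 to 206 in the others.

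Timp2, which inhibits Mmp2 and also serves its activation by Mmp14, was higher in fibroblast-like cells than in any other class in libraries 1, 2 and 4, and in library 3 the intervals of fibroblast-like and macrophage-like cells overlapped. Its levels there were 3387, 1626, 750 and 813 CPM in libraries 1 to 4. Schwann-lineage-like cells had 1085, 377, 306 and 524 CPM of Timp2, below fibroblasts in 4 of 4 libraries, by less than 2-fold in library 4. At the 10% mitochondrial limit the library 2 glia had 589 CPM of Timp2. Macrophage-like cells held 977, 754, 648 and 692 CPM. Timp2 was the one inhibitor that stayed within 4-fold of the fibroblast level in macrophages of each library, with log2 ratios of -1.79, -1.11, -0.21 and -0.23. Endothelial-like cells were lower, at 61.9 to 255 CPM of Timp2.

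Timp3, the matrix-bound inhibitor that also blocks Adamts4, Adamts5 and Adam17, had the opposite layout. In Schwann-lineage-like cells it stood at 249, 478, 214 and 557 CPM, and in endothelial-like cells at 287, 261, 394 and 403. Fibroblast-like cells had 43.5, 112, 149 and 81.1 CPM of Timp3, under both in each library. Endothelial-like cells exceeded fibroblasts by 6.60-fold, 2.34-fold, 2.64-fold and 4.96-fold in libraries 1 to 4. For Schwann-lineage-like cells the Timp3 ratio was 5.73, 4.28, 1.44 and 6.87, past 2-fold except in library 3. Macrophage-like cells held 11, 3, 1 and 27 UMIs of Timp3, a level of 1.78 to 21.7 CPM.

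Timp4, an inhibitor best known from heart and vessels, stood in different classes in different libraries. Mural-like cells had 37.8, 112 and 264 CPM in libraries 2, 3 and 4. Fibroblast-like cells had 19.6, 17.8, 80.3 and 27.4 CPM in libraries 1 to 4, and perineurial-like cells had 36.7 in library 1. Schwann-lineage-like cells had 60.7 CPM in library 2 (55.9 to 65.8) and 65.5 in library 3 (54.7 to 77.9), but 0.848 in library 4 (44 UMIs in 6158 cells) and 0 UMIs in the 234 cells of library 1, where 3 UMIs would be 3.99 CPM. The mural level of library 2 was 58.8 CPM under a stricter marker gate. At the 10% mitochondrial limit Timp4 was 29.2 CPM in the library 2 glia. Endothelial-like cells had 4 UMIs of Timp4 in library 1 and 4 in library 2, against 47.7 and 99.7 CPM in libraries 3 and 4.

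**Figure D2:**
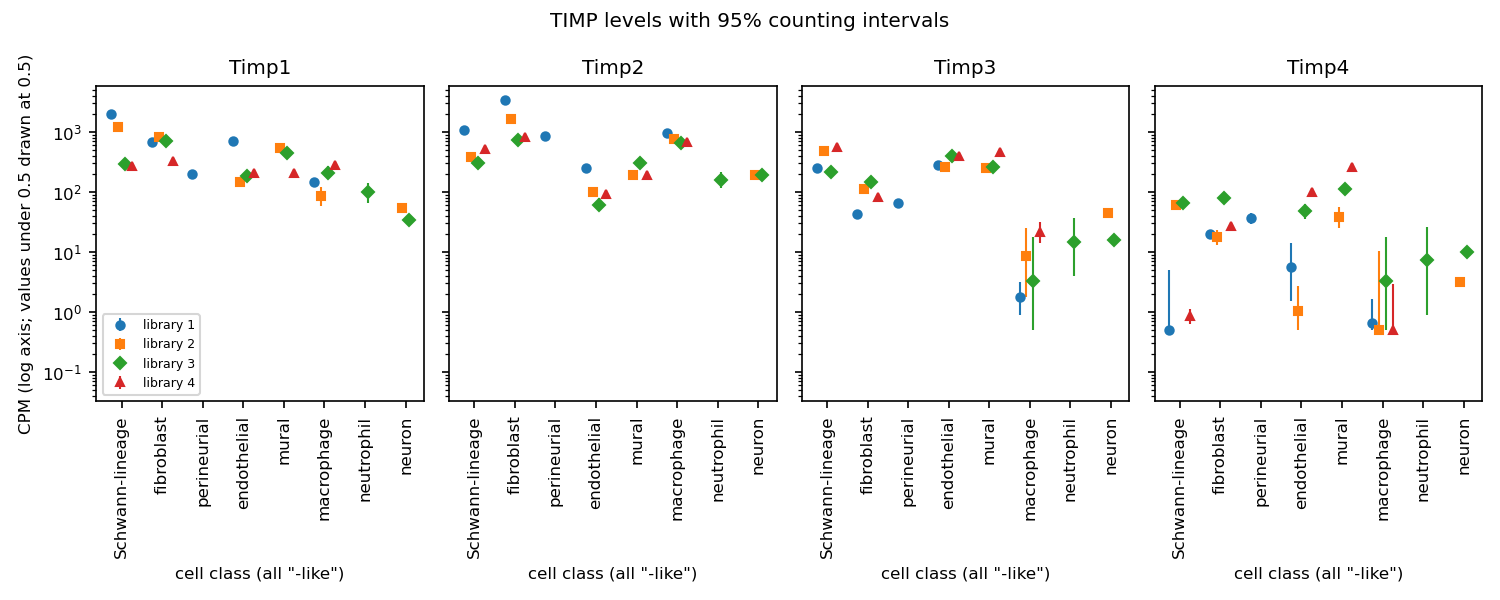
Levels of the 4 Timp genes in CPM (log axis) by class, with 1 symbol per library and 95% counting intervals as bars; values under 0.5 are drawn at 0.5. Timp3 lies at 1.78 to 21.7 CPM in macrophages, and the Timp4 level of Schwann-lineage-like cells runs from 0 to 65.5 CPM over the libraries.

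Markers of subtypes split the Schwann-lineage-like cells further, into cells of lists named myelin-forming, immature and satellite glia. A list of dividing cells took 2, 1, 9 and 107 cells in libraries 1 to 4 and is not described. In the same order, 128 of 234, 358 of 1170, 197 of 451 and 4321 of 6158 cells were in no subset. The subset levels thus describe only part of the class. Immature is the name of a marker list only. Whether its cells were at an early stage or were mature cells without myelin was not tested. Mag, at 399 CPM in the myelin-forming cells of library 1, was at 140 CPM in the immature cells there (17 UMIs, 40 cells). Immature cells of the other libraries had no more than 26.0 CPM of Mag. Timp4 went with the satellite glia list. In cells of that list it stood at 75.0 CPM in library 2 (466 UMIs, 571 cells) and at 280 in library 3 (79 UMIs, 82 cells; 221 to 349). Myelin-forming cells beside them had 2.1 and 3.08 CPM of Timp4, from 1 and 2 UMIs, and immature cells 9.51 and 22.3, from 5 and 4 UMIs. Fabp7, the leading marker of satellite glia, stood at 911 and 768 CPM in the satellite cells of libraries 2 and 3. Of the other satellite markers Slc1a3 had 380 UMIs in library 2 and 1 in library 3, and Kcnj10 12 and 1. The list also took 993 cells in library 4, where Fabp7 had 1 UMI in all of them, and these are not called satellite glia here. Their Timp4 level was 1.75 CPM.

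Timp1 was lower in myelin-forming than in immature cells in libraries 1, 2 and 4. Immature cells had 2918, 946, 239 and 318 CPM, and myelin-forming cells 1132, 254, 209 and 155. In library 3 the intervals of Timp1 overlapped (173 to 323 against 176 to 248). The cells were few in library 1, 40 immature and 50 myelin-forming. Mmp14, the membrane-type enzyme that activates proMmp2, stood at 90.7, 66.6, 123 and 130 CPM in immature cells and at 44.3, 60.9, 26.2 and 36.3 in myelin-forming cells. The Mmp14 intervals were apart in libraries 3 and 4 and overlapped in libraries 1 and 2. Adamts1 had the same order: 57.7, 95.1, 16.7 and 80.3 CPM in immature cells and 6.33, 10.5, 6.16 and 16.96 in myelin-forming cells, with intervals apart in libraries 2 and 4. Timp3 had 183, 87.7 and 282 CPM in myelin-forming and 377, 234 and 646 in immature cells of libraries 2 to 4, and in library 1 it was 285 and 272. Adamts5 reached 156 CPM in the satellite cells of library 3 (44 UMIs; 113 to 209), against 33.4 in immature and 15.4 in myelin-forming cells there. In library 2 the satellite cells had 46.8 CPM of Adamts5 (41.6 to 52.5) and the immature cells 47.6.

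**Figure D3:**
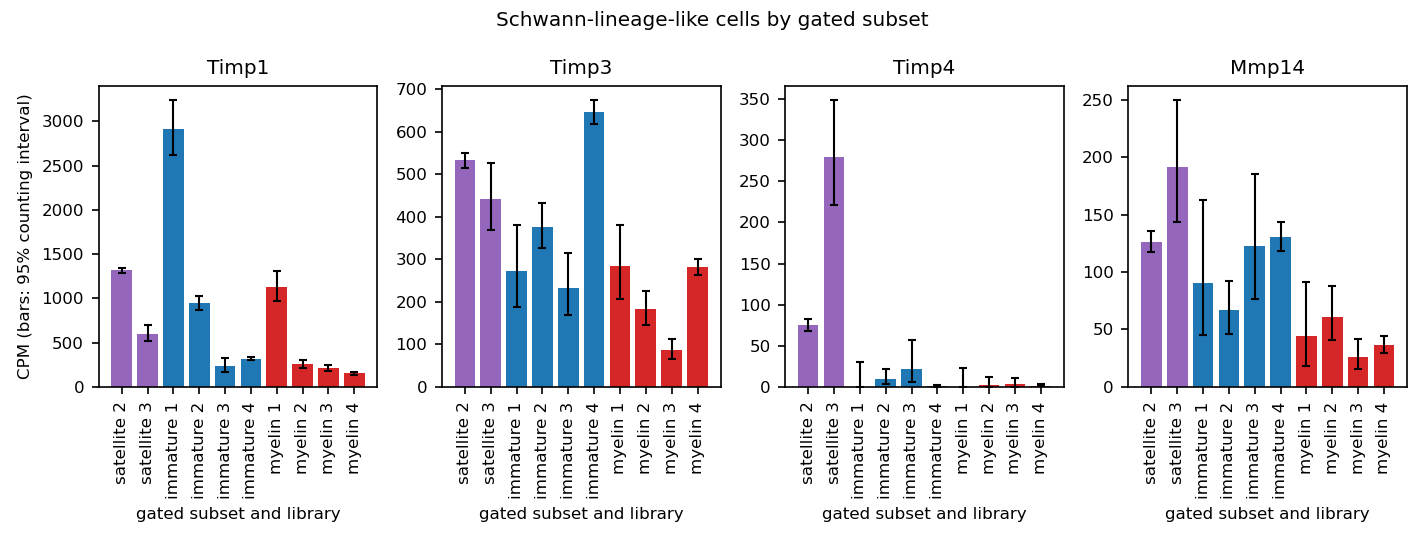
Bars of Timp1, Timp3, Timp4 and Mmp14 levels (CPM, linear axes from 0) in satellite, immature and myelin-forming subsets of Schwann-lineage-like cells, labelled by library, with 95% counting intervals. The subsets are named after their marker lists. The Timp4 bars stand at 75.0 and 280 CPM in the satellite cells of libraries 2 and 3 and near 0 in myelin-forming cells.

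Mmp2, the gelatinase of connective tissue, was a fibroblast gene in each library. Its levels in fibroblast-like cells were 962, 755, 409 and 587 CPM, and in Schwann-lineage-like cells 41.3, 25.2, 74.2 and 159 CPM. The glia lay lower by 23.3-fold, 30.0-fold, 5.51-fold and 3.7-fold. As a share of the fibroblast level, Mmp2 in glia was 4.29%, 3.34%, 18.1% and 27.0%, where the summed fibroblast markers were at 3.76%, 0.792%, 5.71% and 11.6%. The part of fibroblast RNA in the glial level was not tested. At the 10% mitochondrial limit Mmp2 in library 2 glia was 9.41 CPM.

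Mmp9, the gelatinase of granulocytes and osteoclasts, was sparse. It had 45 UMIs in 25 of the 72 neutrophil-like cells of library 3 (164 CPM). The 68 macrophage-like cells of that library had 37 UMIs of Mmp9, all in 1 cell. That cell also held 100 UMIs of Ctsk and 68 of Acp5, both known from osteoclasts, and 5 of C1qa among its 11929 UMIs, and the other 67 cells held 0 Mmp9 UMIs. Ctsk was at 3 UMIs in those 67 cells. At a mitochondrial limit of 10%, or with a class score of 0.4 and a lead of 2, the macrophage level of Mmp9 was 0.

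Mmp8, the neutrophil collagenase, had 251 UMIs in 45 of the 72 neutrophil-like cells of library 3, a level of 917 CPM (807 to 1037). Fibroblast-like cells of library 3 had 3 UMIs of Mmp8 in 3 of 1152 cells, with a median depth of 5910 UMIs against 2821 in the neutrophil-like cells. Among neutrophil-like cells with at least 1000 genes the levels were 154 CPM for Mmp8 and 22.8 for Mmp9, and under a stricter marker gate they were 1655 and 276. S100a8, S100a9 and the other neutrophil markers summed to 150118 CPM in the class. Fibroblast markers summed to 4437 CPM in it.

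Mmp13, the collagenase of cartilage and bone, had 297 UMIs in 153 of the 4838 neuron-like cells of library 2 (6.33 CPM; 5.63 to 7.09). The 2068 neuron-like cells of library 3, with a median depth of 35782.5 UMIs against 1127, had 6 UMIs (0.0892 CPM). In Schwann-lineage-like cells Mmp13 had 4 UMIs in library 2 and 1 in library 3. Mmp3, the stromelysin, had 391 UMIs in 99 of the 6461 fibroblast-like cells of library 1 (6.89 CPM), 27 UMIs in 6 cells of library 3, 4 UMIs in library 2 and 0 in library 4. Mmp27 had 1934 of its 1970 UMIs in the fibroblast-like cells of library 1, in 1002 cells, 34.1 CPM (32.6 to 35.6). Fibroblast-like cells of libraries 2, 3 and 4 had 2, 0 and 0 UMIs of Mmp27, and in library 4 a count of 3 UMIs would be 0.236 CPM. The Schwann-lineage-like cells of library 1 had 0 UMIs in 234 cells, with a median depth of 2890.5 against 7830. With these glia set at 3 UMIs they were 8.54-fold lower, a log2 ratio of -3.09, and the upper limit of its interval was -2.79. The neutrophil-like cells of library 3 had 4 UMIs of Mmp27 in 4 cells.

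Membrane-type enzymes divided the classes. Mmp14 was at 163, 177, 242 and 264 CPM in fibroblast-like cells and at 78.6, 109, 100 and 107 in Schwann-lineage-like cells, 1.63-fold to 2.48-fold lower. At the 10% mitochondrial limit the library 2 glia had 65.9 CPM of Mmp14. Mmp15, a second membrane-type enzyme, was the reverse. Schwann-lineage-like cells had 185 (156 to 219), 137 (130 to 144), 182 (164 to 202) and 273 CPM (268 to 277) of Mmp15, and fibroblast-like cells had 1.38, 11.1, 8.09 and 15.6. These are ratios of 135, 12.4, 22.5 and 17.5. Of the 20 genes measured in the contrast in 4 of 4 libraries, Mmp15 was the one that was past 2-fold higher in glia in each. Among glial subsets, Mmp15 was at 120 to 274 CPM in myelin-forming and 147 to 269 in immature cells. Neuron-like cells had 54.3 and 30.9 CPM of Mmp15 in libraries 2 and 3.

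Mmp24, a membrane-type enzyme known from sensory neurons, stood at 39.7 CPM in the neuron-like cells of library 2 and 31.5 in library 3. In the same libraries Schwann-lineage-like cells had 1.96 and 2.56 CPM of Mmp24 and fibroblast-like cells 1.07 and 2.82. Among library 2 neuron-like cells Mmp24 was 42.9 CPM above 5000 UMIs and 11.7 CPM in the 3881 cells under 2000 UMIs. Timp1 moved the other way with depth in them, 42.5 against 149 CPM. With each cell given equal weight, the library 2 level was 15.9 CPM for Mmp24 and 127 for Timp1. Mmp16 in fibroblast-like cells was at 3.51, 12.1, 29.7 and 34.5 CPM. Mmp17 did not pass 2.47 CPM in any class, and Mmp20, the tooth enamel protease, had 27 UMIs in all.

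Mmp23, a small enzyme without the hemopexin domain of most Mmp proteins, had 569, 218, 144 and 97.4 CPM in fibroblast-like cells. In Schwann-lineage-like cells it had 41.3, 3.61, 10.7 and 28.9 CPM. Mural-like cells of libraries 3 and 4 had 91.2 and 76.2 CPM of Mmp23, and the intervals of mural-like and fibroblast-like cells overlapped in library 4 and not in library 3. Mmp19 was at 10.6, 12.8, 6.81 and 3.78 CPM in fibroblast-like cells.

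Among the proteoglycan-cutting Adamts genes, Adamts1, Adamts4 and Adamts9 are described in the cells of vessels. Mural-like cells had 1215 CPM of Adamts1 in library 2 (1134 to 1300), 187 in library 3 and 512 in library 4. Endothelial-like cells had 262, 304, 201 and 314 CPM of Adamts1, above the fibroblasts of each library (89.7, 197, 84.5 and 154), by less than 2-fold in library 2. In library 2 glia Adamts1 was at 105 CPM, and at 68.7 with the 10% limit. Adamts4 was at 489, 69.7, 15.2 and 91.5 CPM in endothelial-like cells and at 340, 96.2 and 265 in mural-like cells of libraries 2 to 4. Fibroblast-like cells had 115, 86.7, 27.5 and 39.8 CPM of Adamts4. The endothelial level was more than 2-fold higher in libraries 1 and 4 and lower in libraries 2 and 3, with log2 ratios of -0.32 (-0.57 to -0.06) and -0.85 (-1.72 to -0.10). Adamts9 was at 213, 50.2, 39.6 and 48.0 CPM in endothelial-like cells and 12.3 to 32.6 in fibroblast-like cells. In library 2 mural-like cells were higher, at 97.3 CPM from 67 UMIs, with an interval apart from the endothelial one. In libraries 3 and 4 mural-like cells stood below both classes. Over 28 pairs of class and library, the Spearman correlation of levels was 0.88 between Adamts1 and Adamts4 and 0.82 between Adamts1 and Adamts9. The median over 351 gene pairs was 0.34. The pairs share libraries, and the correlation is given as a description.

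Adamts5, the main cartilage aggrecanase, was at 26.6, 42.5, 48.6 and 88.5 CPM in Schwann-lineage-like cells and 42.7, 23.2, 55.1 and 38.8 in fibroblast-like cells. Neither class was higher throughout: the log2 ratios were -0.68, 0.87, -0.18 and 1.19. Adamts20, known from pigment cell migration, had 18.6, 2.79, 22.5 and 32.1 CPM in Schwann-lineage-like cells. Fibroblast-like cells had 11, 0, 0 and 18 UMIs of Adamts20. With the fibroblasts of library 3 set at 3 UMIs, the glia there were 58.5-fold higher, a log2 ratio of 5.87 with a lower limit of 5.51. In library 4 the glia were 22.7-fold higher. Adamts17 followed the same classes, with 10.7, 11.7, 15.4 and 36.6 CPM in glia and 0.176, 0.357, 0.514 and 2.83 in fibroblast-like cells. At the 10% mitochondrial limit Adamts17 in library 2 glia was 3.76 CPM. Adamts7 was above fibroblasts in glia of libraries 1 to 3 (25.3, 16.6 and 25.1 CPM against 4.57, 8.21 and 11.3) and below them in library 4 (29.4 against 38.9).

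Adamts2, the main procollagen N-peptidase of skin and tendon, was at 380, 257, 136 and 335 CPM in fibroblast-like cells and at 385 CPM in the perineurial-like cells of library 1. Schwann-lineage-like cells had 14.6, 0.206, 0 and 3.59 CPM of Adamts2. These levels were 3.85%, 0.0802%, 0% and 1.07% of those of fibroblasts, where the fibroblast markers were at 3.76%, 0.792%, 5.71% and 11.6%. Adamts14, a second procollagen peptidase, had 7.25, 11.4, 12.5 and 12.9 CPM in fibroblast-like cells, and Adamts3 no more than 4.69 CPM in any class. Adamts12 was at 95.3, 104, 87.7 and 201 CPM in fibroblast-like cells, 0 to 6.38 in Schwann-lineage-like cells and 17.4 to 42.0 in endothelial-like cells. Mural-like cells had 14.5, 86.3 and 105 CPM of Adamts12 in libraries 2 to 4, and in library 3 their interval overlapped that of fibroblasts. Adamts10, which binds fibrillin fibres, was at 63.7 CPM in perineurial-like cells of library 1 and 25.1 in the fibroblasts there. Adamts13, the protease of von Willebrand factor, had 20 UMIs in 20 of the 1627 macrophage-like cells of library 1 and 3 UMIs in the fibroblasts.

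Gene by gene against fibroblast-like cells, the set leaned low in glia. A gene was counted when it had 20 UMIs on either side, and called when the CPM ratio was 2-fold or more. In library 1, 5 of 28 genes were called higher in Schwann-lineage-like cells (26% of all genes) and 13 lower (12.1% of all genes). Library 2 had 6 of 22 higher (15.1%) and 12 lower (15.4%), library 3 had 4 of 25 higher (11.7%) and 16 lower (18.5%), and library 4 had 6 of 26 higher (15.9%) and 16 lower (16.7%). In library 1, 3 genes at 0 UMIs in glia could not be placed. The median log2 ratio of the set was -1.05, -1.58, -1.29 and -1.55, against 0.43, -0.03, 0.05 and 0.07 over all genes. Lower in 4 of 4 libraries were Mmp2, Mmp23, Adamts2, Adamts4, Adamts10, Adamts12 and Adamts15. In library 1 the calls of Adamts10 and Adamts15 rested on 2 UMIs each in glia. The interval of the Adamts15 log2 ratio there ran up to -0.29, short of 2-fold. Those of Adamts12 in library 1 and Adamts2 in library 3 were calls from 0 UMIs in glia. The call of Adamts8 as higher in library 1 rested on 1 UMI in glia (interval of the log2 ratio -4.23 to 3.68). With a mitochondrial limit of 10% the count of higher genes in library 2 was 2.

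**Figure D4:**
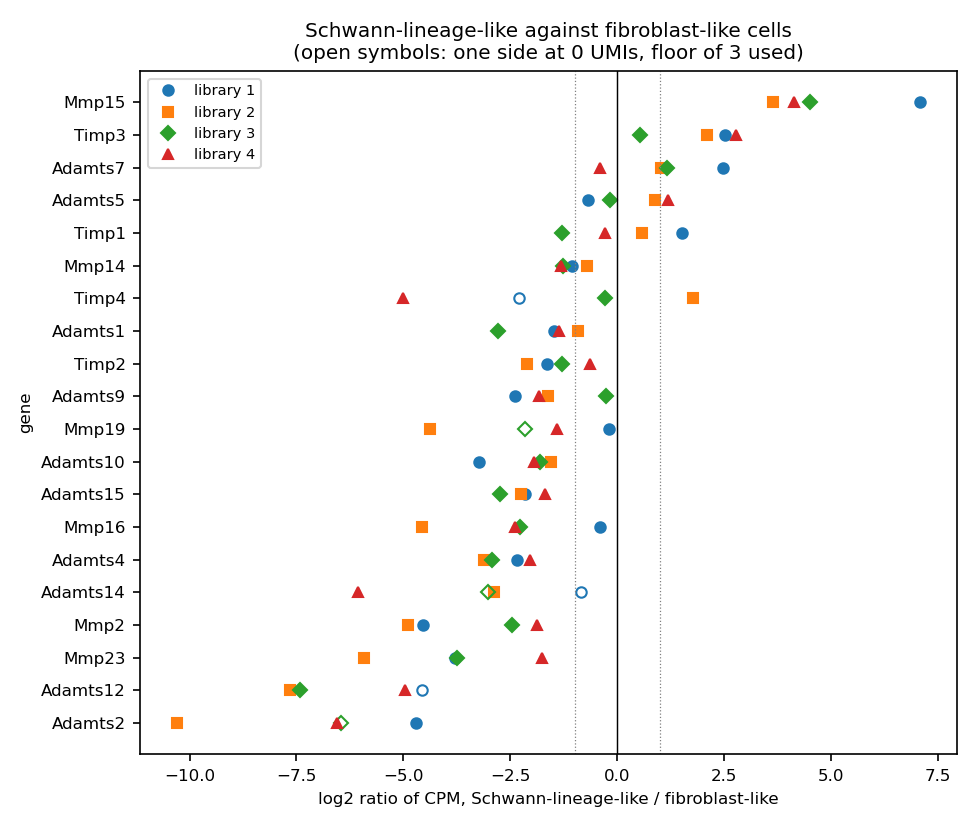
Log2 ratio of CPM in Schwann-lineage-like against fibroblast-like cells for the 20 genes measured in each of the 4 libraries (symbols by library; dotted lines at 2-fold; open symbols where 1 side had 0 UMIs and a floor of 3 was used). Mmp15 lies right of the upper line in each library, at 3.63 to 7.07, and Adamts2 lies left of the lower line in each, down to -10.28 in library 2 from 2 UMIs in glia (interval -13.33 to -8.43).

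Macrophage-like cells, known for taking matrix apart, had lower levels of most of these genes than fibroblasts. In libraries 1 to 4, 25 of 29 (26.2% of all genes), 15 of 20 (22.2%), 15 of 24 (20.3%) and 19 of 24 genes (28.3%) were called lower. Called higher were 1 (18.3% of all genes), 1 (12.9%), 2 (13.5%) and 0 genes (12.9%). The medians were -4.26, -1.69, -1.64 and -3.25, against -0.09, -0.06, -0.14 and -0.29 over all genes. Genes lower in 4 of 4 libraries numbered 12 of 20, Timp3, Timp4, Mmp2, Mmp14 and Mmp23 among them. Calls in 4 of 4 libraries were not counted over all genes in any contrast, so this number has no share beside it. For Adamts1, Adamts2, Adamts4 and Adamts12 the calls in libraries 2 and 3 were bounds from 0 UMIs in macrophage-like cells. Such bounds were also among the calls of Adamts15 (libraries 2 to 4), Timp4 (libraries 2 and 4), Adamts5 and Mmp23 (library 2) and Adamts10 (library 3). Upper limits of the log2 ratio fell short of 2-fold for Timp4 (-0.71), Adamts15 (-0.93) and Adamts10 (-0.09) in library 2. That of Adamts10 in library 3 was -0.94. The higher calls were Adamts13 in library 1, Mmp15 in library 2 from 8 UMIs, and Mmp9 and Mmp24 in library 3, the former from 1 cell and the latter from 2 UMIs (interval of the log2 ratio -1.94 to 3.21).

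In endothelial-like cells the set also leaned low, and the higher calls in libraries 1 to 3 were near the share over all genes. In libraries 1 to 4, 7 of 28 (22.7% of all genes), 3 of 20 (20.7%), 3 of 23 (13.9%) and 5 of 24 genes (12.4%) were called higher than in fibroblasts. Called lower were 12 (14.6%), 14 (14.2%), 14 (21.7%) and 12 (20.6%). The medians were -0.93, -3.16, -1.48 and -1.25, against 0.25, 0.21, -0.11 and -0.10 over all genes. Timp3 was higher in 4 of 4 libraries. Timp2, Mmp2, Mmp14, Mmp23, Adamts2, Adamts7, Adamts12 and Adamts15 were lower in 4 of 4. Adamts7 had 1 UMI in the endothelial-like cells of library 1, and the interval of its log2 ratio there was -7.01 to 0.79. Mmp24 was called higher in library 1 from 3 UMIs (interval 0.99 to 5.10).

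Within the fibroblast-like cells of library 1, which had the most cells, 3 marker groups differed in their proteases. The first had Myoc or Thbs4 (3466 cells), the second Pi16 or Tnfrsf11b (1215 cells), and the third Ucma, Gdf10 or Cilp (1118 cells), and their median depths were 6614.5, 9120 and 13280 UMIs. Mmp27 was at 5.48 CPM in the first (4.58 to 6.51), 55.9 in the second (51.6 to 60.4) and 56.2 in the third (52.4 to 60.1). Adamts5 was highest in the Pi16 group, with 133 CPM (126 to 140) against 10.9 in the Myoc group and 23.8 in the Ucma group. Timp3 had the same order, 103 CPM against 17.3 and 35.2. Mmp14 was at 265 CPM in the Pi16 group and at 137 and 132 in the Myoc and Ucma groups, whose intervals overlapped. Mmp2 was at 1323 CPM in the Ucma group, 906 in the Pi16 group and 697 in the Myoc group. Timp4 was at 53.3 CPM in the Pi16 group, 17.4 in the Myoc group and 2.36 in the Ucma group. Adamts16 was in the Myoc and Pi16 groups, at 9.9 and 7.46 CPM, and at 0.404 in the Ucma group.

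Sensory neurons of library 2 held Adamts8 as well as Mmp13. Adamts8, a proteoglycanase known for blocking vessel growth, had 1295 UMIs in 320 of the 4838 neuron-like cells there, 27.6 CPM (26.1 to 29.1). Neuron-like cells of library 3 had 60 UMIs of Adamts8, 0.892 CPM. Schwann-lineage-like cells of library 2 had 12 UMIs in 12 of 1170 cells (1.24 CPM), with a median depth of 7204.5 UMIs against 1127. By depth within library 2 neurons, Adamts8 was at 28.4 CPM in cells above 5000 UMIs and at 22.4 in cells under 2000. Of the 682 deep cells, 221 held Adamts8, 121 held Mmp13 and 79 held both. Barcodes removed by the filters held another 766 UMIs of Adamts8, 740 of them from library 2 barcodes over the mitochondrial limit.

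Deep neurons were split by Scn10a, the sodium channel of nociceptors, at 1 UMI per 10000. Cells at or above this level are called Scn10a cells, and those below it Scn10a-low. In library 2, Adamts8 was at 31.9 CPM in the 553 Scn10a cells (30.2 to 33.8) and 1.8 in the 129 Scn10a-low cells (0.824 to 3.42). Mmp13 was at 6.97 CPM against 1.0 in the same cells. The Scn10a cells were then split by Tac1, the substance P gene, a cut chosen after values had been seen. The level of the cut was again 1 UMI per 10000, and the Tac1-low cells below it still held 41.7 CPM of Tac1. Adamts8 was at 2.96 CPM in the 233 Tac1 cells (2.12 to 4.01) and at 49.3 in the 320 Tac1-low cells (46.5 to 52.3), 41 and 1141 UMIs. Mmp13 followed, with 2.52 CPM against 9.64. Mmp15 was at 33.6 against 74.6 CPM, and Mmp24 differed little, at 41.9 against 46.6. The Tac1-low cells held 821 CPM of P2rx3, 92.3 of Mrgprx3 and 70.9 of Lpar3, genes known from non-peptidergic nociceptors, against 199.8, 14.2 and 14.4 in the Tac1 cells.

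Library 3 neurons were split in the same way. Their Tac1-low cells held 399 CPM of P2rx3, 13.2 of Mrgprx3 and 3.08 of Lpar3, against 250.5, 9.3 and 0.291 in the Tac1 cells. In the Tac1-low cells of library 2 these genes were at 821, 92.3 and 70.9 CPM. In library 3, Adamts8 had 5 UMIs in the 264 Tac1 cells and 38 in the 936 Tac1-low cells (0.484 and 0.935 CPM), and Mmp13 had 0 and 2 UMIs. Mmp15 had the reverse order of library 2. In library 3 it was at 35.5 CPM in the Tac1 cells (31.9 to 39.3) and 29.6 in the Tac1-low cells (28.0 to 31.3). Adamts16 was higher in the Tac1 cells than in the Tac1-low cells of both libraries, with 29 UMIs against 2 in library 2 (2.09 and 0.0865 CPM) and 34 against 6 in library 3 (3.29 and 0.148 CPM). The Scn10a-low deep neurons held 0 UMIs of Adamts16 in library 2 and 22 in library 3, where their 1.41 CPM stood beside 0.785 in the Scn10a cells.

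Other genes of matrix breakdown were read from lists chosen with the set. Over all genes, 26%, 15.1%, 11.7% and 15.9% were called higher in glia than in fibroblasts in libraries 1 to 4, and 12.1%, 15.4%, 18.5% and 16.7% lower. Plat, the tissue plasminogen activator, was at 384, 240, 548 and 344 CPM in endothelial-like cells. In Schwann-lineage-like cells Plat was at 200, 488, 190 and 178 CPM, and in fibroblast-like cells at 103, 211, 86.7 and 104. Among 8 regulators, 6 of them measured in each library, 3, 5, 4 and 3 were lower in glia and 1, 0, 0 and 0 higher, with medians of -0.85, -2.43, -2.45 and -1.67. Pcolce, which speeds procollagen trimming, was at 2278, 1246, 810 and 1143 CPM in fibroblast-like cells and 16.0 to 78.6 in glia. Reck, a membrane inhibitor of Mmp enzymes, was at 113, 125, 61.2 and 73.5 CPM in fibroblasts and at 53.3, 33.5, 12.8 and 38.7 in glia. Of 7 Adam sheddases, Adam10 and Adam17 were higher in glia in 4 of 4 libraries, and 1, 2, 2 and 2 others were lower, with medians of 0.36, -0.31, -0.80 and -0.64 over 6, 5, 6 and 6 measured genes. Of 4 Adamts-like proteins, which lack a protease domain, 0 were higher and 2 were lower in each library. Adam10 was at 57.3, 41.3, 79.8 and 155 CPM in glia and 8.25, 7.85, 20.8 and 28.6 in fibroblasts.

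Of the 5 cathepsins, 5, 4, 4 and 4 were measured, 0 were higher in glia in any library (11.7% to 26% of all genes) and 2, 3, 3 and 2 were lower (12.1% to 18.5%), with medians of -1.25, -1.19, -1.67 and -1.12. Ctsk was at 589 to 700 CPM in fibroblast-like cells and at 2.58 to 12.0 in glia. In macrophage-like cells Ctsb was called higher in each library, at 2886, 1723, 1902 and 3262 CPM. Ctss stood at 112, 54.0, 67.7 and 90.2 CPM in them and at no more than 1.43 in fibroblasts. Of 8 substrates, 4, 7, 5 and 5 were measured, and 0, 3, 1 and 0 were called higher in glia. The higher ones were Bcan, Ncan and Col2a1 in library 2 and Col2a1 in library 3. Vcan, Col1a1, Col1a2 and Col3a1 were lower in glia in each library, but the 3 collagens were among the markers that defined fibroblast-like cells. Vcan, which was not, stood at 296, 314, 349 and 597 CPM in fibroblasts and at 6.83 to 9.91 in glia.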

How the data were processed

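The authors deposited 1 matrix of UMI counts, made with Cell Ranger 3.1.0 per the file headers. CASAVA 1.8, Seurat and the build Rnor_6.0 are listed, without their roles, in the notes on processing that the submitters gave. No aligner setting is given in the sources used here. From these deposited counts, summed UMIs per class and library were divided by the class total (CPM), with exact Poisson intervals, and ratios have Clopper-Pearson intervals, all at 95% and for counting error only.

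A class score was the mean log of 1 plus counts per 10000 over a class's markers (104 of 112 found), divided by its percentile 99.5 over kept cells. A cell needed 3 detected markers, a score of 0.3 and 1.5 times that of every rival class with 2 markers. These thresholds were set after the data were seen: 3351 cells had a lead of 1.5 to 2, and 1618 stayed out with 1.25 to 1.5. No doublet caller was run, and the lead leaves out only barcodes in which a rival class scores close to the first, so doublets can remain. Genes with 20 UMIs in a class of 20 cells are described. A side at 0 was set at 3 UMIs for a bound, which is not the limit of the interval. The 3 contrasts set Schwann-lineage-like, macrophage-like and endothelial-like cells against fibroblast-like cells. The genes and lists were chosen with earlier results of these data known. Gene groups of library 1 fibroblasts needed 2 UMIs of their markers and 2 times those of the other groups. The tools were scipy 1.17.1, Python 3.11.15, pandas 2.3.3, matplotlib 3.10.9 and numpy 2.4.6, and the calculations were tested on simulated data. RefSeq promoters came from GRCr8, and no coordinates were converted. The counts of the plasminogen list are not reported here.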

Additional observations from a re-analysis of the deposited data

Results flagged for a closer look

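Some genes lay past 2-fold on opposite sides of fibroblast-like cells in different libraries. In each case below the difference between libraries was not tested. In Schwann-lineage-like cells the log2 ratio of Timp1 was 1.51 in library 1 and -1.29 in library 3. That of Timp4 was 1.77 in library 2 and -5.01 in library 4. Adamts8 was at 1.11 in library 1 from 1 UMI (interval -4.23 to 3.68) and at -4.49 in library 4 from 6 UMIs. In endothelial-like cells Timp4 was at -4.10 in library 2 and 1.86 in library 4, and Mmp24 at 3.37 in library 1 from 3 UMIs and -1.48 in library 3 from 1 (interval -6.84 to 1.15). In macrophage-like cells Mmp15 was at 1.04 in library 2 from 8 UMIs and -1.51 in library 1 from 3 (interval -3.81 to 0.10).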

How the results depend on the processing

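No paired analysis was possible because each group had 1 library. The numbers of called genes and the median ratios were recomputed under 9 other settings, and in none did a median change sign. Beyond the limits named below, they stayed within 1.5 times the reported count, or within 1.5-fold of the reported median, in 285 of the 324 values.

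With cells thinned to 1000 UMIs, fewer genes reached 20 UMIs. In Schwann-lineage-like cells the genes called higher were then 3 in library 2 and 1 in library 3, and those called lower 7 and 10. In macrophage-like cells those called higher were 0 in libraries 1, 2 and 3, those called lower 7 in library 3 and 9 in library 4, and the median log2 ratio -2.72 in library 2 and -1.43 in library 4. In endothelial-like cells those called higher were 4 in library 1 and 1 in library 4, those called lower 7, 7, 8 and 6 in libraries 1 to 4, and the median -1.56 in library 1. With at least 50 UMIs on either side, the median was -1.97 for Schwann-lineage-like cells of library 3 (2 genes higher), -3.35 for macrophage-like cells of library 2, and -2.54 and -2.23 for endothelial-like cells of libraries 2 and 4, and 0 genes were higher in macrophage-like cells of libraries 1, 2 and 3.

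With a mitochondrial limit of 10%, 2 genes were higher in Schwann-lineage-like cells of library 2, and 0, 0 and 1 in macrophage-like cells of libraries 1, 2 and 3. With at least 1000 genes per barcode, 0 and 1 were higher in macrophage-like cells of libraries 1 and 3. With a class score of 0.4 and a lead of 2, chosen after seeing the data, 0 were higher in macrophage-like cells of libraries 1, 2 and 3, where the median of library 2 was -2.57, and 3 in endothelial-like cells of library 4. With the mean of the cells' own CPM, 0 were higher in macrophage-like cells of library 2 and 3 in endothelial-like cells of library 4. A stricter marker gate, barcodes of at least 2000 UMIs (chosen after seeing the data) and CPM without mitochondrial, ribosomal protein and haemoglobin genes moved no count past those limits. Apart from thinning, where fewer genes could be tested, the cause was not tested. Of 336 levels, 263 stayed within their counting interval and 318 within 1.5-fold at the 10% limit. Fewer did so with the mean of the cells' own CPM, 219 and 310 of 337 levels. Among the contrasted classes the fewest UMIs were in the macrophage-like cells of library 3 (310187) and library 2 (351657), where depth limits the levels most.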
